A study of Drosophila melanogaster with 2 samples.

Results

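The genes described here are those of the fourth chromosome of Drosophila melanogaster, the smallest autosome. They were taken by position: every locus that the deposited transcript table places on chromosome 4, apart from 5 loci left out by name. Those 5 are a ribosomal protein gene, an ATP synthase subunit gene, a translation initiation factor gene and 2 transcription factor genes. This leaves 82 of 13816 loci in the table. RNA with poly(A) tails was sequenced from the posterior midgut, the hind part of the absorptive middle intestine, of wild-type Oregon R females raised at 25 °C, at 5 days and at 45 days of age. Midguts were pooled before extraction and each age has 3 biological replicates per the labels, so p-values measure the spread between pools. The authors' table names its columns treatment 1 to 3 and control 1 to 3. Which of these sets is 5 days and which 45 days is not stated in the labels or the file headers, so every difference is given as treatment against control and none as an effect of age.

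The fourth chromosome is largely packed as heterochromatin, the condensed and repeat-rich form of chromatin that usually silences genes, yet most of its genes are transcribed. Its gene bodies carry the heterochromatin protein HP1a and Pof, an RNA-binding protein that coats this chromosome. The histone methyltransferase encoded by egg is required for Pof and HP1a binding there. Loss of Pof is known in flies to lower expression from the chromosome as a whole.

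The deposited placement was checked against RefSeq, in which all 74 members with a matching gene ID lie on chromosome 4. By median, member gene bodies were longer and had more exons than those of the other autosomes, and most held a repeat, though not all did. The 59 members with enough reads to test spanned a median of 8.45 kb with 8 exons and 3 annotated transcripts, against 2.61 kb, 4 exons and 1 transcript for the 6709 tested loci of arms 2L, 2R, 3L and 3R. In the Ensembl annotation of BDGP6, 48 of the 58 members found there (82.8%) held at least 1 annotated transposable element inside the gene body. The share was 7.04% of 6438 loci on the other autosomes. Elements filled 19.1% of member gene bodies and 3.55% of the others. The exocytosis gene Cadps held 20 annotated elements in 40.9 kb, and in Syt7, a synaptotagmin gene, they covered 48.4% of the body. The median level was 23.3 CPM (reads of a gene scaled to library size) for tested members and 20.8 CPM for the other autosomes. Per kilobase of transcript the level was a median of 7.78 CPM for members and 10.6 CPM for the others.

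Libraries held 9581959 to 18001953 reads over loci, of which 0.23% to 0.263% fell on members. Over all loci, libraries of the same set differed far less (chi-square divided by its degrees of freedom, 2.37 to 7.27) than libraries of different sets (99.7 to 183). Member reads took 0.263%, 0.24% and 0.248% of reads in treatment replicates 1 to 3. In control replicates 1 to 3 they took 0.235%, 0.23% and 0.248%, so that the sets overlapped. This overlap holds for the members and not for the whole chromosome. When the loci left out by name were included, the shares were 0.603%, 0.587% and 0.582% in treatment. In control they were 0.556%, 0.564% and 0.573%, all below those of treatment. With TMM scaling, which adjusts libraries so that most genes have equal levels, the members summed to 2416.2, 2250.2 and 2325.0 CPM in treatment and 2548.8, 2467.9 and 2639.8 CPM in control. The sum over all loci was likewise apart on that scale, at 919047 to 939025 CPM in treatment and 1063879 to 1084160 CPM in control. ND-49 alone supplied 10.3% of all member reads.

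Of the 82 members, 59 passed the filter on low counts, 17 had some reads but not enough, and 6 were listed at 0 in all 6 libraries, where a count of 0 allows a level of up to 0.167 to 0.313 CPM depending on the library (3 reads; counting error only). Counts were compared with edgeR's quasi-likelihood test with Benjamini-Hochberg adjustment over all 8137 loci tested, and every adjusted p below is from that test unless another is named. A locus is called changed at an adjusted p under 0.05. Of the 59, 7 were higher and 18 lower in treatment, that is 11.9% and 30.5%. With the loci left out by name added back, 64 loci of the chromosome were tested, 7 higher and 22 lower (10.9% and 34.4%). Over all loci tested, 25.0% were higher and 24.1% lower, and 49.2% were called either way against 42.4% of members. On 2L, 2R, 3L and 3R the shares were 25.6%, 24.1% and 49.6%. The median log2 fold change was -0.03 over members and 0.01 over all loci tested. With scaling by total reads alone the median of all loci moves to 0.22. The 59 members then split into 26 higher and 10 lower, with a median of 0.17. On that scale 4126 of the 8137 loci were higher and 1076 lower. The share of members called higher was again below that of all loci, but by less than with TMM. The 7 higher members all stayed higher on that scale and 10 of the 18 lower ones stayed lower.

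**Figure D1:**
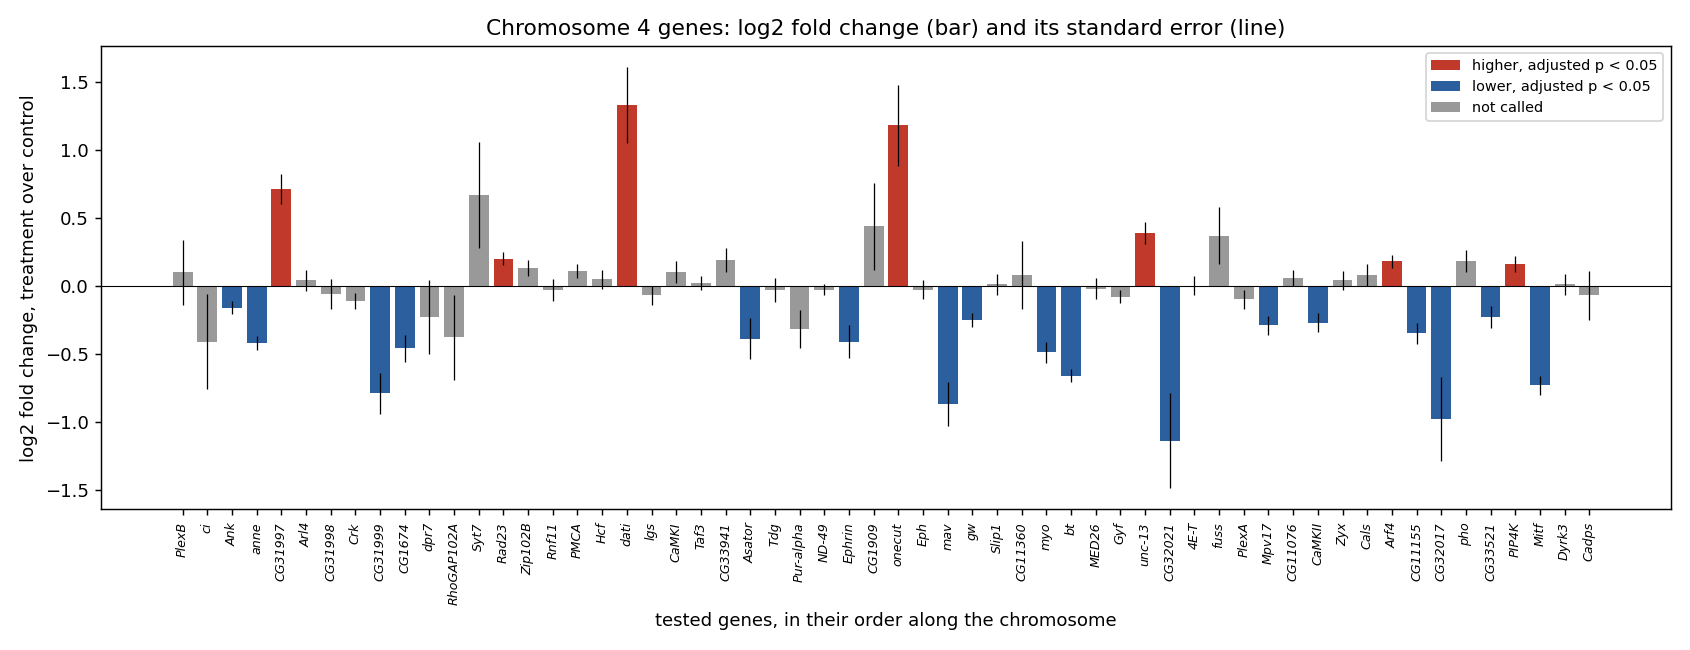
Log2 fold change of treatment over control (bars, y axis) with its standard error (lines) for 58 of the 59 tested chromosome 4 genes in their order along the chromosome (x axis); 1 lower gene is not drawn. The lower genes (blue) and the 7 higher genes (red) lie among 34 genes that were not called (grey).

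Changes were small. A change of at least 2-fold was called for 3 members (5.08%), for 7.24% of all loci tested and for 7.56% of those on the other autosomes. These 3 were dati and onecut, both higher, and CG32021, lower, and all lay at or below 2.54 CPM in every library. CG32021 had no matching RefSeq gene ID and was not among the 58 tested members found in BDGP6. The treatment libraries lay wholly below the control libraries for 21 members (35.6%), as for 26.9% of all loci and of the other autosomes alike. They lay wholly above for 9 members (15.3%), and for 28.4% of all loci and 28.9% of the other autosomes. When the tested members were cut by start position into 3 runs of 20, 20 and 19 genes, those nearest the start held 3 higher and 5 lower, the middle run 1 and 6, and the last run 3 and 7.

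Set against loci of similar mean expression on 2L, 2R, 3L and 3R (6154 loci within the members' range of mean level), 25.5% of those loci were higher, 21.7% lower and 47.2% called either way. Among members with a mean under 10 CPM, 2 of 18 were higher and 6 lower (11.1% and 33.3%), where the other autosomes had 18.6% and 15.9%. From 10 to under 50 CPM, 2 of 25 members were higher and 7 lower (8.0% and 28.0%), against 25.2% and 20.5%. At 50 CPM and over, 3 of 16 members were higher and 5 lower (18.8% and 31.2%), against 33.6% and 37.8%. The median absolute log2 fold change was 0.41 over members and 0.31 over the other autosomes under 10 CPM, 0.10 and 0.17 from 10 to under 50 CPM, and 0.14 and 0.23 at 50 CPM and over. These classes were cut from all tested loci of the other autosomes, and levels were not matched within a class. Under 10 CPM the median level was 1.66 CPM for members and 3.9 CPM for the others, with median SEs of 0.26 and 0.18. At 50 CPM and over the median levels were 96.4 and 121.3 CPM. In each class the share of members called higher was below that of the other autosomes. These shares are descriptions of small counts, and no test of the list was made.

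**Figure D2:**
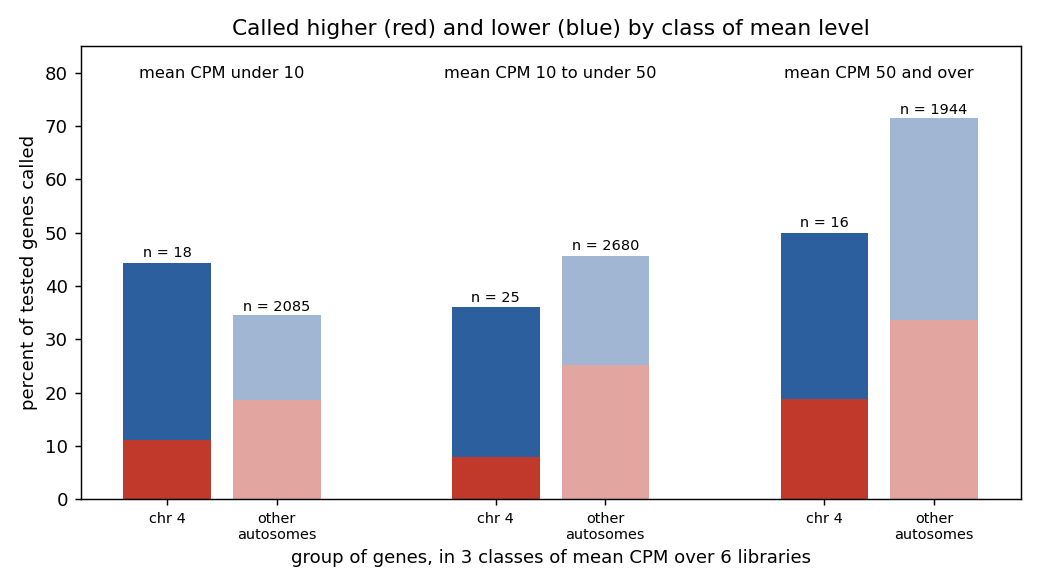
Percent of tested genes called higher (red) and lower (blue) in treatment, for chromosome 4 genes (solid) and genes of 2L, 2R, 3L and 3R (pale), in classes of mean CPM (x axis). From 10 to under 50 CPM, 36.0% of 25 chromosome 4 genes and 45.7% of 2680 others were called.

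**Figure D3:**
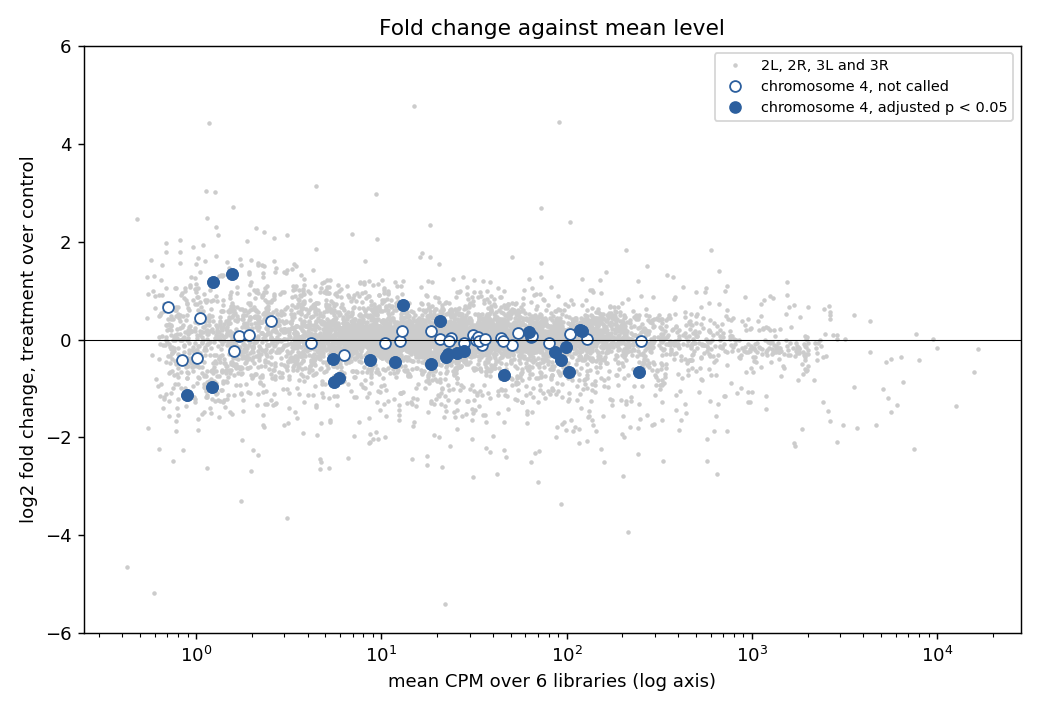
Log2 fold change of treatment over control (y axis) against mean CPM over 6 libraries (x axis, log scale) for genes of 2L, 2R, 3L and 3R (grey), chromosome 4 genes not called (open circles) and called (filled circles). Chromosome 4 genes lie within the spread of the others, the outermost being dati (1.33) and CG32021 (-1.14).

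Levels are given per library in the order of replicates 1, 2 and 3. Among signalling ligands and receptors, both ligands of the TGF-beta family that could be tested were lower. Positions below are those of the deposited table, whose genome build is not named. Levels of mav (maverick; 4, 643842 to 646656, minus strand) were 3.98, 4.61 and 3.22 CPM in treatment and 7.23, 6.15 and 8.24 CPM in control. It fell 1.83-fold (log2 -0.87, SE 0.16; adjusted p = 2.93e-05), with sets that do not overlap. The gene for myoglianin, myo (711890 to 716675, minus strand), known in flies as a ligand made by muscle and glia, had 16.9, 13.9 and 15.0 CPM in treatment and 22.0, 20.8 and 22.9 CPM in control. It fell 1.41-fold (log2 -0.49, SE 0.08; adjusted p = 8.41e-06), again without overlap. The activin gene Actbeta had at most 5 reads in any library and could not be tested.

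Of the guidance genes, the ligand changed and its receptor did not pass the test. Ephrin, the membrane-bound ligand of Eph, was at 8.22, 6.27 and 7.8 CPM in treatment and 9.64, 10.6 and 9.87 CPM in control, a fall of 0.41 on the log2 scale (SE 0.12; adjusted p = 0.00453). With total-read scaling it was not called (adjusted p = 0.137). The receptor tyrosine kinase gene Eph had 33.2, 30.9 and 35.7 CPM in treatment and 32.4, 35.2 and 34.3 CPM in control (log2 -0.03, SE 0.07; adjusted p = 0.75), so the sets overlapped. The difference between the changes of Ephrin and Eph was not tested. The semaphorin receptor gene PlexA had a log2 difference of -0.10 (SE 0.07; adjusted p = 0.206) and its relative PlexB, near 2 CPM, one of 0.10 (SE 0.24; adjusted p = 0.773).

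Of the intracellular kinases and adaptors, CaMKII, the calcium and calmodulin dependent kinase gene, fell slightly, standing at 24.4, 22.3 and 22.6 CPM against 27.8, 28.6 and 27.4 CPM in control (log2 -0.27, SE 0.07; adjusted p = 0.0026). The sets did not overlap, but with total-read scaling the value was -0.06 and was not called. Asator, a tau tubulin kinase gene chosen after its values were seen, fell by 0.39 on the log2 scale (adjusted p = 0.0263). DESeq2 did not call it (adjusted p = 0.0911), nor did edgeR on total-read scaling (0.268). Leaving out treatment replicate 1 or 3, or control replicate 2 or 3, ended the call too (adjusted p of 0.0587 to 0.0889). Asator overlaps CG33941 on the opposite strand, and reads of such partners cannot be told apart if strand was not used in counting. The phosphoinositide kinase gene PIP4K was the only member of its group that rose (log2 0.16, SE 0.06; adjusted p = 0.0374), with overlapping sets. It was chosen after its values were seen, as the remaining called member. DESeq2 did not call it (adjusted p = 0.123), nor did edgeR on summed transcripts (0.0663), or without treatment replicate 1 (0.263), treatment replicate 3 (0.0714) or control replicate 2 (0.22). PIP4K overlaps CG33521 on the opposite strand. For Crk, an SH2 and SH3 adaptor gene, the log2 difference was -0.11 (SE 0.06; adjusted p = 0.146). In all, 14 of 16 ligand, receptor and signalling genes were tested, 1 rose and 5 fell, with a median log2 of -0.11. Over all loci tested the shares were 25.0% higher and 24.1% lower. The counts of this and the other role groups were not tested against them.

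Of the transcription factor genes, dati and onecut rose and Mitf fell. The zinc finger gene dati (396260 to 414016, minus strand) rose 2.52-fold, from 0.803, 0.769 and 1.02 CPM in control to 1.89, 2.35 and 2.54 CPM in treatment (log2 1.33, SE 0.28; adjusted p = 0.00015). The homeodomain gene onecut, known in flies for roles in neurons, rose 2.27-fold (adjusted p = 0.00155). Its values were 1.74, 2.06 and 1.36 CPM against 0.893, 0.705 and 0.681 CPM. Neither pair of sets overlapped, though both genes rest on few reads, 9 to 37 per library for dati and 10 to 34 for onecut. Mitf (1219484 to 1228193, plus strand), the fly member of the MITF and TFEB family that drives lysosomal and V-ATPase genes, fell 1.66-fold. Its levels were 34.1, 32.3 and 37.0 CPM in treatment and 58.7, 54.8 and 58.4 CPM in control (log2 -0.73, SE 0.07; adjusted p = 5.03e-11). All 3 treatment libraries lay far below the lowest control library.

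Other regulators of transcription did not pass the test. Means over 3 libraries for the Polycomb-group DNA-binding gene pho were 19.7 ± 0.912 CPM (SD) for treatment and 17.6 ± 1.59 CPM for control (adjusted p = 0.0672). It passed on total-read scaling (0.000202) and without control replicate 1 (0.0337). The Wingless co-activator gene lgs was at 27.2 ± 0.941 and 28.5 ± 1.9 CPM for the same sets (adjusted p = 0.471). The Hedgehog effector gene ci was near the floor at 0.728 ± 0.181 and 0.947 ± 0.183 CPM (adjusted p = 0.348). The Pax genes of eye and bristle development, ey, toy and sv, and the Sox gene Sox102F had too few reads to test. Each library held 2 to 7 reads of ey, and toy, sv and Sox102F had at most 1. In this role group 9 of 15 members were tested, 2 rose and 1 fell. Beside the rises of dati and onecut, both known from neurons, stand the neuron markers: of 11 listed, 9 matched and 4 were tested, of which elav rose (log2 1.22; adjusted p = 0.000868) and the other 3 did not pass. The summed level of the 9 was 13.9 to 15.4 CPM in treatment and 10.2 to 14.1 CPM in control, and no matched marker was at 0 in all libraries. The part of neuronal RNA in these rises was not tested.

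**Figure D4:**
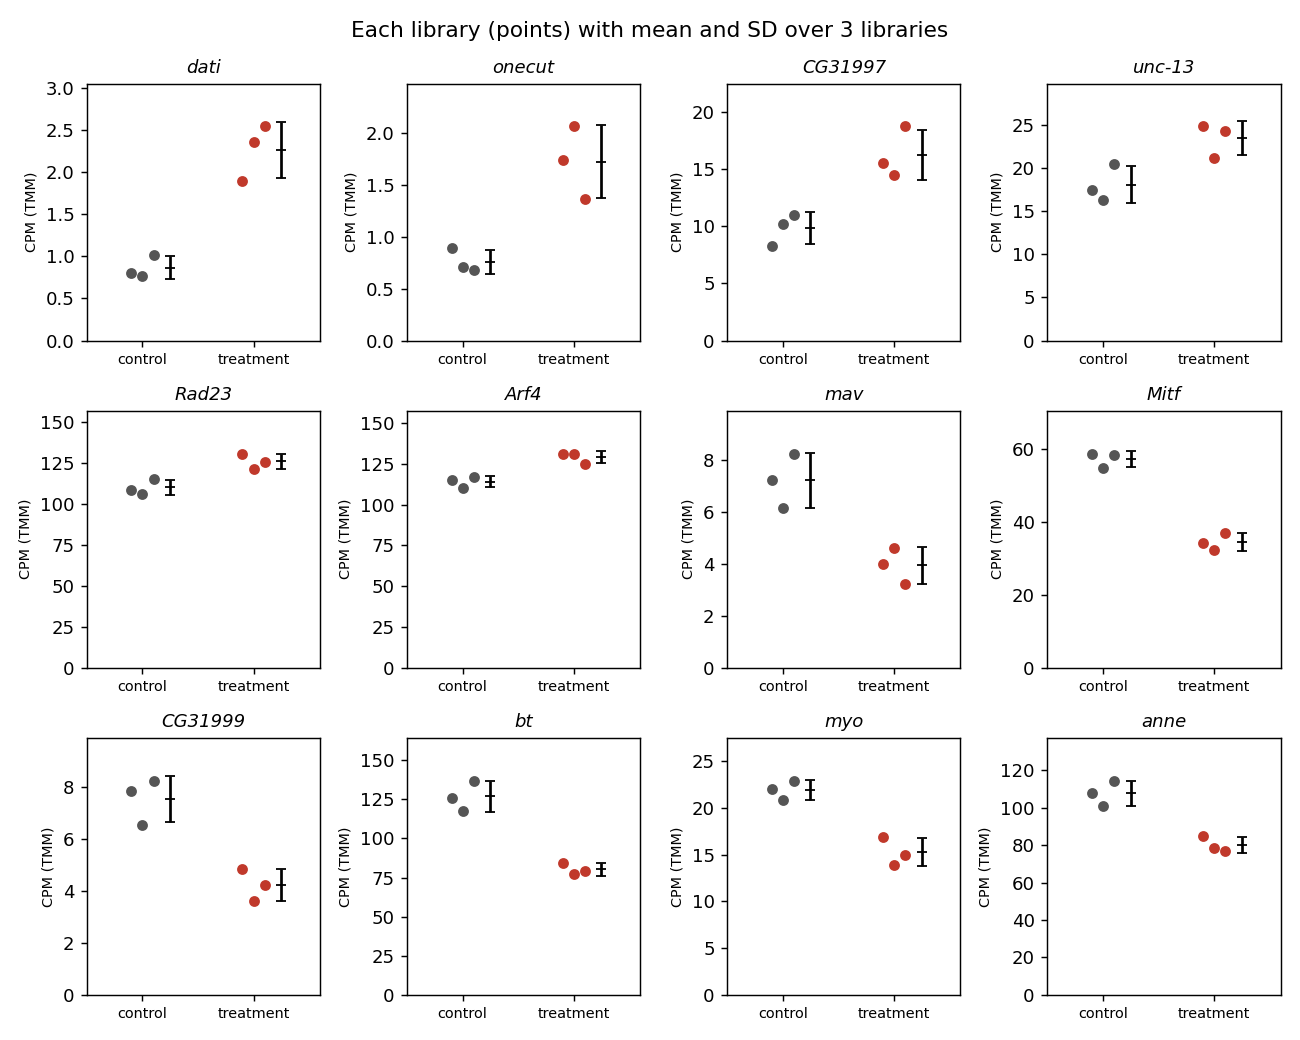
Levels (TMM-scaled CPM, y axes from 0) of 12 chromosome 4 genes in each control (grey) and treatment (red) library, with mean and SD over 3 libraries beside the points. The 12 were picked by hand, with their values known, from called members whose sets do not overlap, so the separation in each panel follows from the choice; over all loci 26.9% lay wholly below and 28.4% wholly above control. In the panel of bt the values lie at 77.1 to 84.6 CPM in treatment and 117.6 to 136.9 CPM in control.

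Among genes of synapses, channels and secretion, unc-13 rose and Ank fell. unc-13, which primes vesicles for release, rose 1.31-fold, from 17.4, 16.3 and 20.5 CPM to 24.8, 21.2 and 24.3 CPM (log2 0.39, SE 0.08; adjusted p = 0.000298). The plasma membrane calcium pump gene PMCA was at 107.7 ± 6.94 and 100.4 ± 6.38 CPM (adjusted p = 0.0881). It was called higher with total-read scaling (adjusted p = 1.69e-05) and without treatment replicate 2 (0.0248). Ank, an ankyrin gene whose product links membrane proteins to spectrin, was at 93.5 ± 2.91 and 104.5 ± 3.62 CPM (log2 -0.16, SE 0.05; adjusted p = 0.0067), a direction that turned to 0.05 with total-read scaling. Of 9 genes in this group 6 were tested, 1 rose and 1 fell. CG11155, a predicted glutamate receptor gene that fell, is counted among members without a role group.

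The muscle gene of the chromosome was lower. bt (745030 to 796707, plus strand) encodes projectin, a giant elastic protein of the sarcomere, and its most-read transcript has 46 exons. Its levels were 84.6, 77.1 and 78.9 CPM in treatment and 126.2, 117.6 and 136.9 CPM in control, a 1.57-fold fall without overlap (log2 -0.66, SE 0.05; adjusted p = 6.69e-12). Most visceral muscle markers moved with it: of 13 listed, 12 matched by symbol and were tested. Of these 12, 9 fell and 3 rose, with a median log2 of -0.99. Their summed level was 1577.5 to 1636.2 CPM in treatment against 2395.7 to 2542.9 CPM in control. The sum leaves out the 1 listed marker that matched no locus. Mhc, the muscle myosin heavy chain gene, was at 141.1 ± 8.78 CPM in treatment and 352.9 ± 6.49 CPM in control, and no matched marker was at 0. In bulk tissue RNA, fewer muscle cells and less of a transcript per muscle cell cannot be told apart. Zyx, the zyxin gene of actin-linked adhesions, was at 44.6 ± 1.72 and 43.6 ± 2.5 CPM (adjusted p = 0.652; 0.00226 on total-read scaling, where it was called higher). With Ank, which also belongs to the role group of muscle and cytoskeleton, 3 of its 4 members were tested, 0 rose and 2 fell.

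**Figure D5:**
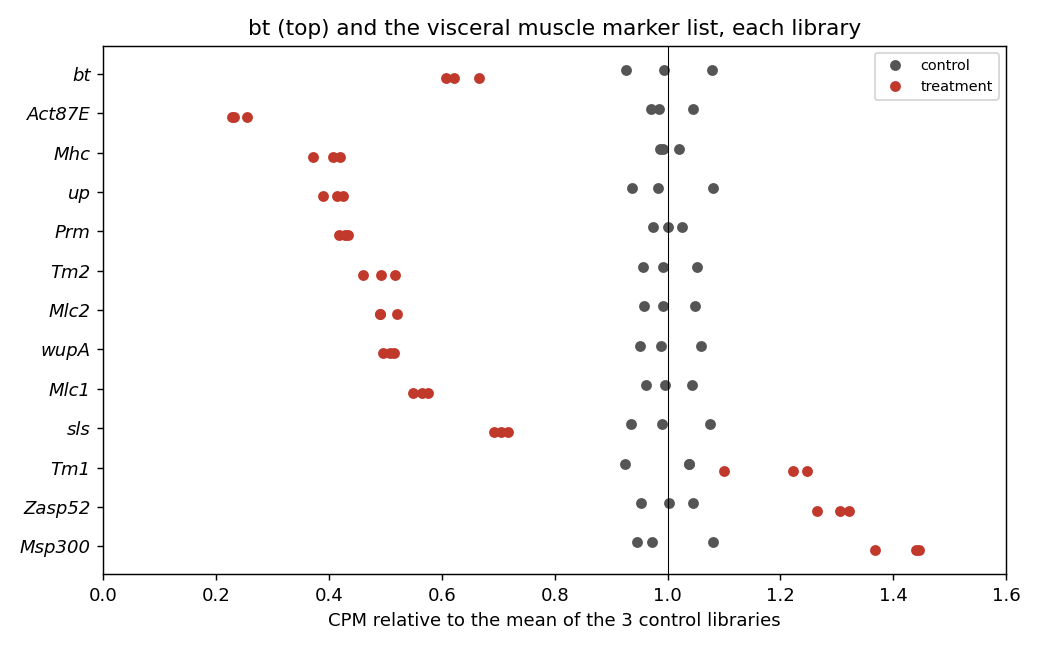
CPM relative to the mean of the 3 control libraries (x axis) for bt and the 12 visceral muscle markers matched by symbol. Every control (grey) and treatment (red) library is drawn. The treatment libraries of bt lie below its control libraries. Of the 12 markers 9 were lower in treatment, and Tm1, Zasp52 and Msp300 were higher.

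Genes of membrane transport and metabolism include ND-49, the member with most reads. anne, the gene of a P-type ATPase, was at 84.8, 78.3 and 77.1 CPM against 107.9, 100.8 and 114.5 CPM, a fall of 0.42 on the log2 scale (SE 0.05; adjusted p = 6.05e-08). Its sets did not overlap, and on total-read scaling it was still called lower (log2 -0.22; adjusted p = 0.00142). ND-49, a core subunit of respiratory complex I, was the member with the highest level per kilobase, at 159.4 CPM per kilobase, and stood at 247.7, 256.8 and 245.1 CPM in treatment and 253.0, 254.9 and 258.3 CPM in control. Its log2 difference of -0.03 (SE 0.04; adjusted p = 0.554) turned to 0.17 with total-read scaling, where it was called higher (adjusted p = 0.000841). Mpv17, a mitochondrial inner membrane protein gene, fell by 0.29 (adjusted p = 0.00125; 0.311 with total-read scaling). The lipophorin precursor gene apolpp, known as a fat body product, had 1 to 5 reads per library and was not tested. In the role group of metabolism and transport 2 of 4 members were tested, 0 rose and 1 fell; Mpv17 is counted among members without a role group.

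Of 4 genes listed under RNA and protein turnover, all tested, 1 rose and 1 fell. They include Tdg (log2 -0.03, SE 0.09; adjusted p = 0.804), whose part in turnover was not checked. Rad23, a ubiquitin receptor that carries proteins to the proteasome, was at 130.7, 121.6 and 125.7 CPM in treatment and 108.6, 106.2 and 115.4 CPM in control (1.15-fold higher; log2 0.20, SE 0.05; adjusted p = 0.00092). gw, the GW182 protein gene of microRNA silencing, was at 84.2, 73.6 and 79.7 CPM against 96.3, 92.7 and 95.5 CPM (log2 -0.25, SE 0.05; adjusted p = 0.000155). For both, the libraries of the 2 sets were apart, but gw was not called with total-read scaling (log2 -0.05; adjusted p = 0.469). Rnf11, a RING finger gene, had a log2 difference of -0.03 (SE 0.08; adjusted p = 0.802), which was 0.18 and called on total-read scaling (0.0406).

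Among members without a role group, 22 of 32 were tested, 2 rose and 8 fell. CG31997 (175335 to 176678, minus strand), an uncharacterised gene, rose 1.63-fold, from 8.3, 10.2 and 11.0 CPM to 15.5, 14.5 and 18.7 CPM (adjusted p = 1.6e-06). Arf4, a small GTPase gene of vesicle traffic listed as Arf102F, rose 1.13-fold, at 131.2, 130.9 and 124.8 CPM against 115.1, 110.2 and 117.0 CPM (log2 0.18, SE 0.05; adjusted p = 0.00185). The treatment libraries of both lie above all control libraries.

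Several of the genes that fell carry only an annotation number. CG31999 fell 1.73-fold, from 7.85, 6.53 and 8.24 CPM to 4.85, 3.63 and 4.24 CPM (adjusted p = 5.53e-05). CG1674 fell 1.37-fold, from 15.1, 12.9 and 13.3 CPM to 9.6, 10.1 and 10.3 CPM (adjusted p = 0.00028). The sets of both were apart. CG32017 fell by 0.98 on the log2 scale (SE 0.31; adjusted p = 0.00971) and CG32021 by 1.14 (SE 0.35; adjusted p = 0.0071), the latter from 13 to 19 reads per control library to 5 to 9 per treatment library. CG32021 was not called by DESeq2 (adjusted p = 0.0511) or in the absence of treatment replicate 1 (0.0677). CG11076, among the 5 members with the highest level per kilobase, had a log2 difference of 0.06 (SE 0.06; adjusted p = 0.372; 0.000225 on total-read scaling, where it was called higher). CG33521, chosen after its values were seen like Mpv17 and CG11155, fell by 0.23 (adjusted p = 0.0148). It was not called on total-read scaling (0.818) or in the absence of control replicate 1 (0.0654), and its antisense partner is PIP4K. CG11155, a predicted glutamate receptor gene, fell by 0.35 (adjusted p = 0.000254; 0.101 with total-read scaling).

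Gene bodies with and without annotated transposable elements were both found among the changed members. Of the 48 tested members with an element, 4 rose and 13 fell, with a median log2 of -0.03. Of the 10 without one, 3 rose and 4 fell, with a median of -0.01. For comparison, 25.0% of all loci tested were higher and 24.1% lower. No test of the difference between members with and without an element was made.

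Genes whose products act on the fourth chromosome or on heterochromatin lie on other arms and were counted from a list of 25, of which 22 matched and 20 were tested. Of these 5 rose and 2 fell, with a median log2 of 0.03. Over all loci tested 25.0% were higher and 24.1% lower, so rises were no more frequent in this list than over all loci. Pof averaged 13.9 ± 1.06 CPM over treatment libraries and 12.0 ± 0.473 CPM over control libraries (log2 0.21, SE 0.09; adjusted p = 0.0605). On total-read scaling its adjusted p was 0.000331, and on summed transcripts 0.0304. The gene of HP1a rose from 58.8 ± 1.41 to 69.4 ± 2.34 CPM (1.18-fold; adjusted p = 0.000467). egg, the Setdb1 histone methyltransferase gene, fell from 15.4 ± 1.48 to 12.8 ± 0.753 CPM (log2 -0.26, SE 0.09; adjusted p = 0.023). DESeq2 did not call egg (adjusted p = 0.081), nor did edgeR on total-read scaling (0.648) or in the absence of treatment replicate 2 (0.0882) or of control replicate 2 (0.197). HP6 and the histone methyltransferase gene Su(var)3-9 were listed at 0 in all libraries. How reads shared with other loci were handled is not given, so a listed 0 need not mean absence of the transcript.

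Other genes of that list that changed include Lam, the B-type lamin of the nuclear envelope, at 38.1 ± 3.9 against 29.1 ± 2.1 CPM (log2 0.41, SE 0.08; adjusted p = 4.28e-05). The AT-hook DNA-binding gene D1 (log2 0.24; adjusted p = 9.66e-05) and the insulator gene BEAF-32 (log2 0.29; adjusted p = 0.00136) rose as well. JIL-1, a histone H3 kinase gene, fell by 0.21 (adjusted p = 0.0107), not called on total-read scaling (0.946) or in the absence of control replicate 3 (0.06). HP1b, named after its values were seen as the remaining called gene, rose by 0.23 on the log2 scale (adjusted p = 0.0167). DESeq2 did not call it (0.116), nor did edgeR when treatment replicate 1, treatment replicate 3 or control replicate 3 was left out (0.0554 to 0.0689).

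In the authors' deposited table of compared genes, 25 members were found, 23 of them with an adjusted p under 0.05, of which 7 had a positive and 16 a negative log2 fold change. Of 4101 genes there, 219 matched no symbol, so a member not found may still be listed in the authors' deposited table. Of the 25 found, 23 were tested here, all 23 had the sign of treatment over control, and 21 were called in both. Asator, called here, had an adjusted p of 0.0551 in the authors' deposited table. CG33521 stood at -0.69 in the authors' deposited table, and 2 members with too few reads to be tested here, CG33978 and the nuclear factor I gene NfI, were listed at 0.95 and -0.87.

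All 6 stem cell and enteroblast markers rose (summed level 195.7 to 197.4 CPM in treatment and 127.5 to 129.2 in control). Of 12 enteroendocrine markers 6 fell, and of 7 enterocyte markers 4 fell and 2 rose, with a median log2 of -0.17. The summed enterocyte level was 6231.4 to 6701.8 CPM in treatment and 12415.6 to 12934.9 CPM in control, while the means of 5 of the 7 markers differed by 1.03-fold to 1.13-fold. The other two, picked out after their values were seen, were mag, at a mean of 1102.6 CPM in treatment and 4702.9 CPM in control, and LManV, at 1376.1 and 3782.0 CPM. Fat body (4 tested: 3 higher, 1 lower; 29.8 to 32.3 against 20.2 to 24.2 CPM), hemocyte (3 tested: 1 higher, 1 lower) and trachea markers (4 tested: 3 lower) had low sums, and Lsp1alpha of the fat body was at 0. The part of cell composition in the changes of the chromosome 4 genes was not tested.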

How the data were processed

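Whole-number read counts per transcript were deposited by the authors in 6 columns, 3 treatment and 3 control, with a transcript length, per the file headers. DESeq is named in the submitters' processing notes. The aligner, the genome build and the handling of shared or antisense reads: not given in the sources used here. The authors' deposited table of log2 fold changes and adjusted p-values was used only where it is named, matched by ID for 3757 of its genes and by CG number for 125, and 6 deposited columns of normalized values were not used.

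After 145 predicted transcripts and 6 loci with a repeated symbol were left out, each locus was represented by its most-read transcript, since transcripts of a locus share reads. RefSeq gave symbols by gene ID for 12820 loci. Counts were tested in R 4.3.3 with edgeR 4.0.16 (TMM, filterByExpr with a minimum count of 10, quasi-likelihood test, Benjamini-Hochberg adjustment); each SE was derived from the log2 fold change and its F statistic. Alternatives were DESeq2 1.42.0, total-read scaling, no filter, summed transcripts, a replicate block, a wider membership, another expression range and each library left out. The edgeR procedure was tested on simulated data.

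The members and all lists were chosen with earlier results of these data known. Genes were named by rule: up to 10 rises and 10 falls with sets apart, the 3 smallest adjusted p of each role group, 24 genes by name, the 5 with most CPM per kilobase, and Pof, egg, the HP1a gene and 4 more of their list. Gigyf on the lists matched no locus, so Gyf is counted without a role group. CG11155, which fell, and CaMKI, Taf3, MED26 and 4E-T, which were not called, are also counted without one. No sequence is shown. The result for 1 lower member is not reported here.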

Additional observations from a re-analysis of the deposited data

How the results depend on the processing

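Total-read scaling moved the counts most: 26 of 59 members were higher and 10 lower, with a median log2 of 0.17. Over all 8137 loci tested 4126 were higher and 1076 lower. Among loci of similar expression on the other autosomes the counts were 3177 and 729. On that scale the log2 values of Crk (0.09), PlexA (0.10), Ank (0.05), lgs (0.14), ND-49 (0.17), Rnf11 (0.18) and Eph (0.17) turned positive, since this scaling moves the log2 value of every locus tested up by 0.18 to 0.21. The members' share of reads, 0.0124 percentage points higher in treatment, became -0.0204 with all transcripts summed. Scaling, filter, test and block do not enter a share, so it was not recomputed for those. Leaving out 1 library gave 6 to 10 members higher, 16 to 18 lower, medians of -0.10 to -0.00 and share differences of 0.00607 to 0.0177 percentage points. It also spanned 0 for 3 genes that were not called in any of those fits, PlexB (-0.06 to 0.30), Rnf11 (-0.07 to 0.03) and Eph (-0.08 to 0.01). Under DESeq2, no filter, summed transcripts, the wider membership and the other expression range, the counts stayed within 1.5 times the main ones. Deviations of same-numbered libraries had low correlations (r = -0.00112, 0.14 and 0.0546). For treatment replicates 2 and 3 the same-numbered control library gave the highest r. Treatment replicate 1 correlated best with control replicate 3, at 0.131. With only 3 libraries per set these values cannot decide whether the numbers pair the libraries. With the replicate block 7 members were higher and 19 lower. Depth limits members near 1 CPM, which rest on few reads per library.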
